A study of Mus musculus with 6 samples.

Results

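The endocannabinoid genes examined here are 9 genes chosen by name out of the 55421 genes of the count table, and all 9 were expressed highly enough to be tested. They encode the CB1 receptor and its interacting protein (*Cnr1*, *Cnrip1*), the enzymes that make the endocannabinoid 2-arachidonoylglycerol, or 2-AG (*Dagla*, *Daglb*), those that break it down (*Mgll*, *Abhd6*, *Abhd12*), and the enzymes that make and break down anandamide (*Napepld*, *Faah*). They were measured in bulk RNA-seq of the hippocampus of wild-type male C57BL/6N mice, 8 to 10 weeks old. In the SP group, 3 mice received substance P (SP, 10 µM, 100 µL) under the skin for 14 days. In the vehicle group, 3 mice received the same volume of saline. Each mouse gave 1 library. The treatment was peripheral, so the hippocampus itself was not injected, and all directions rest on the labels, since no gene in the table records which mice received SP. For some genes, *Drd1*, *Nr4a2*, *Mbp* and *Mag* among them, the study describes a direction opposite to that of SP over vehicle in the deposited columns. The files cannot settle which is right, and every direction given here would turn if the column names were exchanged.

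In the hippocampus, endocannabinoids are lipids that postsynaptic neurons make on demand and that travel backward across the synapse. They bind CB1 on axon terminals, most densely on those of cholecystokinin (CCK) interneurons and more thinly on those of glutamatergic neurons, and lower transmitter release. 2-AG is the main messenger of this retrograde signal, and its making by DAGLα and removal by monoacylglycerol lipase shape several forms of synaptic plasticity.

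The libraries held between 22349941 and 27605937 counts, so that the 9 genes had between 571 and 5989 counts in every library. The labelled tissue was checked on 10 markers of hippocampal fields, such as *Prox1* of dentate granule cells and *Fibcd1* of CA1, and all 10 were expressed in each library. Some libraries stood apart in other tissues. Library SP 1 had 163 CPM (counts per 1000000 counts of the normalized library size) summed over 6 choroid plexus markers, where the other 5 libraries had 2751 to 4681 CPM. Library SP 2 had the most oligodendrocyte RNA, at 6823 CPM over 8 markers against 4149 to 5293 CPM elsewhere, and the least RNA of neocortex and subiculum, at 177 CPM over 8 measured markers against 231 to 285 CPM.

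None of the 9 genes passed the thresholds of the study, FDR < 0.1 and |log2FC| > 0.3, in edgeR's quasi-likelihood test with the replicate number as a block. Of all 17069 genes tested, 0.0293% passed them. The study itself applied these thresholds to DESeq2. With DESeq2 and the same block, 36 genes passed here, and 0 of the 9 did. The 5 enzyme genes *Dagla*, *Mgll*, *Abhd12*, *Napepld* and *Faah* had an unadjusted p under 0.05 and were higher in the libraries labelled SP, by 9.40% to 19.7%. In bulk tissue, a difference in the number of cells of a type and one in RNA per cell cannot be told apart. An unadjusted p under 0.05 with a higher level was found for 4.48% of all tested genes, and one with a lower level for 5.59%, the latter holding for 0 of the 9 genes. The lowest FDR among the 9 genes was 0.418. The median log2 fold change of the 9 genes was 0.13, beside 0.0015 over all tested genes, and 8 of the 9 were above 0. In CPM, SP and vehicle libraries were fully separated for 6 of the 9 genes, all higher under the SP label, while 9.19% of tested genes separated in that direction and 9.03% in the other. The counts were also divided by transcript length and scaled to 1 common total per library (TPM). The groups then separated upward for 2 of the 9 genes, *Abhd12* and *Cnrip1*, and downward for 1, *Cnr1*. Of all genes with a length, 5.37% and 11.3% did so. For *Cnr1* this rested on 84.7 TPM in vehicle 2 and 84.69 TPM in SP 3. With RLE normalization or none, the same 6 genes separated upward as in CPM, beside 8.9% and 7.3% of tested genes. With upper quartile normalization 7 did, beside 9.1%. Downward it was 0 of the 9 in each, beside 9.3%, 10.8% and 9.0%.

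**Figure D1:**
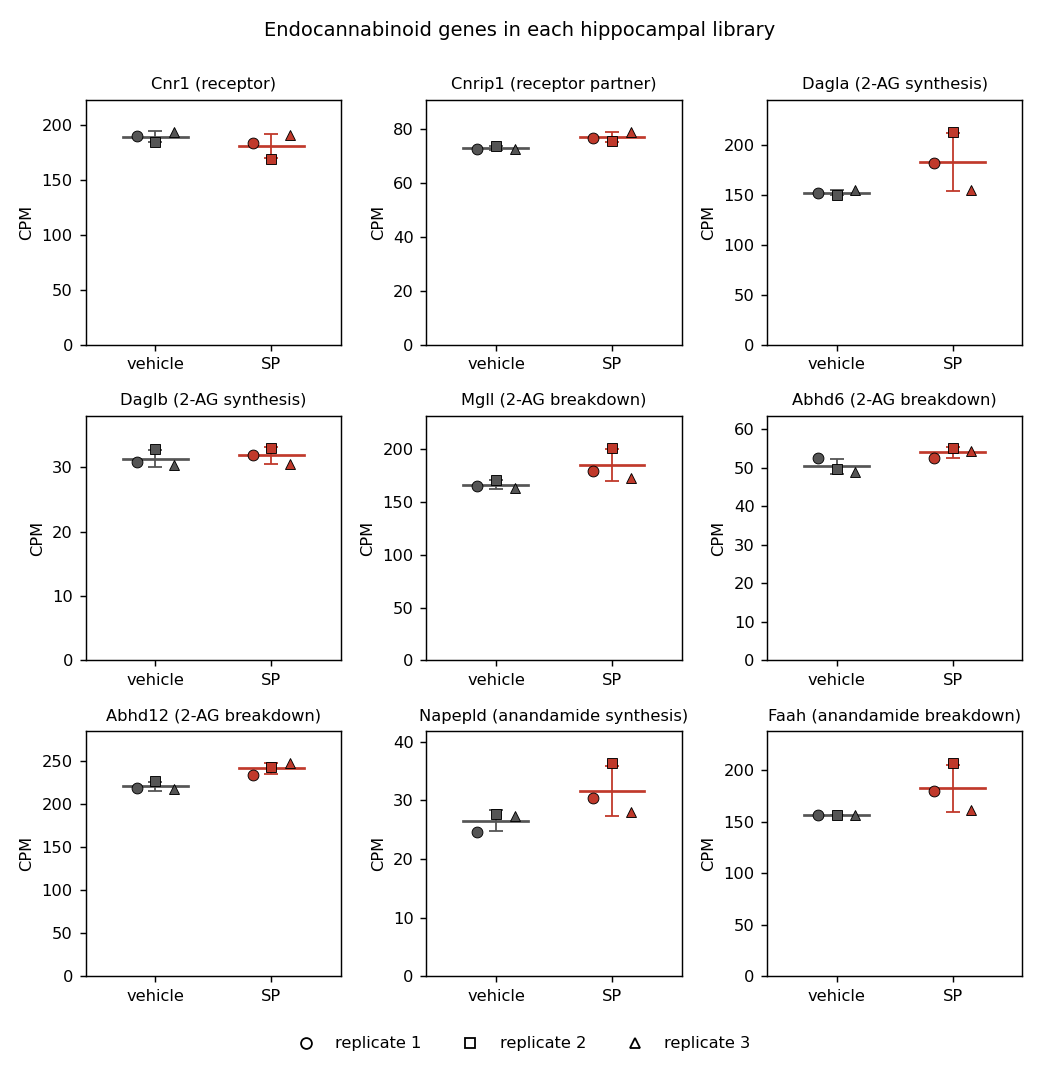
Expression of the 9 genes in CPM, 1 panel per gene, with vehicle libraries in grey, SP libraries in red and a different symbol for each replicate number. Horizontal lines are means over 3 mice and error bars the SD. *Dagla*, *Mgll*, *Napepld* and *Faah* are highest in SP 2 and have SP 3 close to the vehicle libraries, whereas *Cnr1* is lowest in SP 2.

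The receptor gene *Cnr1* (ENSMUSG00000044288, chromosome 4 of GRCm38 from 33924593 to 33948831, plus strand) was the only one of the 9 genes with a negative fold change. Vehicle mice had 189.9, 184 and 194 CPM, and SP mice had 183, 169 and 190.1 CPM. The groups overlapped, with SP 2 lowest of the 6 libraries. On the log2 scale the difference was -0.066 with a standard error of 0.0499 (FDR 0.694), and SP was lower in 3 of 3 replicate pairs. *Cnrip1* (ENSMUSG00000044629, chromosome 11 from 17051586 to 17079371, plus strand) encodes a protein that binds the tail of CB1. It had 72.6, 73.9 and 72.7 CPM under the vehicle label and 76.6, 75.7 and 79.03 CPM under the SP label. Each SP library lay above each vehicle library by a small margin, and the log2 fold change of 0.078 with its standard error of 0.0531 gave an FDR of 0.664.

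Within each library, the ratio of *Cnrip1* counts to *Cnr1* counts was 0.382, 0.402 and 0.376 in the vehicle group and 0.418, 0.448 and 0.416 in the SP group. These values did not overlap, with a log2 difference of 0.14, and the two-sided exact permutation test gave p = 0.1, the smallest that 3 mice against 3 allow. Adjusted over the 6 ratios examined, p was 0.6. The 3 genes whose centred log2 CPM followed that of *Cnr1* most closely over the 6 libraries, of 10343 genes with at least 10 CPM on average, were *Syt16*, *Sh3bgrl* and *Ctnnd2*, with root mean square differences of 0.0153, 0.0153 and 0.0166.

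The *Dagla* gene (ENSMUSG00000035735, chromosome 19 from 10245265 to 10304877, minus strand) encodes DAGLα, the main 2-AG synthase at hippocampal synapses. Vehicle mice had 152, 149 and 154.5 CPM, and SP mice had 181, 213 and 155.1 CPM. SP 1 and SP 2 lay well above the vehicle libraries and SP 3 just above the highest of them. edgeR put the difference at 0.26 on the log2 scale (standard error 0.0903, FDR 0.430), and *Dagla* thus had the largest value of the 9 genes. Its coefficient of variation was 15.8% among the SP mice and 1.76% among the vehicle mice. Leaving out both mice of replicate 2 gave a log2 fold change of 0.13, and leaving out replicate 1 gave 0.26. In each of these edgeR fits the unadjusted p was above 0.05. Leaving out replicate 3 gave 0.38. Without SP 2 alone and without the block the log2 fold change was 0.15, with an unadjusted p under 0.05 in edgeR and an FDR of 0.415.

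The second synthase gene, *Daglb* (ENSMUSG00000039206, chromosome 5 from 143464584 to 143505942, plus strand), is known for its role in microglia and other immune cells. Its expression was 30.8, 32.8 and 30.3 CPM under the vehicle label and 31.9, 33.04 and 30.5 CPM under the SP label. The groups overlapped almost wholly, with a difference of 0.024 on the log2 scale (standard error 0.0613, FDR 0.924). Of the exonic bases of *Daglb*, 24.1% also lie in exons of the opposite-strand gene *Rac1*, which had at least 5931 counts in each library. The library kit keeps the strand, but whether the counting used it is not given in the sources used here.

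The ratio of *Dagla* to *Daglb* counts was 4.93, 4.55 and 5.11 in the vehicle libraries and 5.69, 6.45 and 5.08 in the SP libraries. SP 3 lay within the vehicle range, and the log2 difference of 0.23 had an exact permutation p of 0.2 (two-sided, 0.6 when adjusted).

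Among the 2-AG hydrolases, *Mgll* (ENSMUSG00000033174, chromosome 6 from 88724412 to 88828360, plus strand) encodes monoacylglycerol lipase, which ends most of the 2-AG signal and is found in axon terminals and astrocytes. Vehicle mice had 165, 171 and 163 CPM, and SP mice had 179.6, 201 and 173 CPM. All SP libraries were above all vehicle libraries, SP 2 most clearly. edgeR gave a log2 fold change of 0.15 with a standard error of 0.0535 (FDR 0.436), and it was 0.10 without replicate 2 and 0.083 without SP 2 alone and the block.

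*Abhd12* (ENSMUSG00000032046, chromosome 2 from 150832493 to 150904741, minus strand) encodes a serine hydrolase of 2-AG and of lysophosphatidylserine, prominent in microglia. Its expression was 219, 227 and 217 CPM under the vehicle label and 235, 243 and 248 CPM under the SP label. In contrast to the other 4 genes with p under 0.05, it was highest in SP 3. Its log2 fold change in edgeR was 0.13, with a standard error of 0.05 (FDR 0.458). *Abhd6* (ENSMUSG00000025277, chromosome 14 from 8002902 to 8056763, plus strand) encodes a hydrolase of the postsynaptic membrane. It had 52.6, 49.7 and 48.9 CPM against 52.5, 55.3 and 54.4 CPM, so that SP 1 was just below vehicle 1. This gave a log2 fold change of 0.10 with a standard error of 0.0616 (FDR 0.621).

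The counts of *Mgll* stood in a nearly fixed ratio to those of *Abhd12* in the vehicle libraries, at 0.754, 0.753 and 0.7497, while the SP libraries spread from 0.697 in SP 3 to 0.829 in SP 2. The mean log2 difference was 0.019 (exact permutation p = 0.7). The ratios of *Mgll* to *Abhd6* and of *Mgll* to *Dagla* had log2 differences of 0.047 and -0.11, with exact permutation p of 0.5 and 0.3. Both ratios overlapped between the groups.

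The anandamide genes followed the pattern of *Dagla*. *Napepld* (ENSMUSG00000044968, chromosome 5 from 21662901 to 21701396, minus strand) encodes the phospholipase D that releases anandamide and other N-acylethanolamines from their membrane precursors. Vehicle mice had 24.5, 27.7 and 27.4 CPM, and SP mice had 30.4, 36.3 and 28.1 CPM. SP 3 exceeded the highest vehicle library only slightly. In edgeR the difference was 0.25 on the log2 scale (standard error 0.0839, FDR 0.424). It was 0.17 without replicate 2, and 0.14 when SP 2 alone was left out and no block was used.

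*Faah* (ENSMUSG00000034171, chromosome 4 from 115967145 to 116017926, minus strand) encodes fatty acid amide hydrolase, which degrades anandamide in principal neurons. Its expression was 156.5, 156.7 and 156.2 CPM under the vehicle label, with a coefficient of variation of 0.142%. It was 179.7, 207 and 161 CPM under the SP label, with one of 12.5%. The vehicle mice were thus almost identical and the SP mice spread above them. edgeR put the difference at 0.22 on the log2 scale (standard error 0.0715, FDR 0.418), and it was 0.12 without replicate 2, as it was without SP 2 alone and the block. The ratio of *Faah* to *Napepld* counts overlapped between the groups, from 5.65 to 6.38 in the vehicle and from 5.69 to 5.91 in the SP libraries (log2 difference -0.031, exact permutation p = 0.9).

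**Figure D2:**
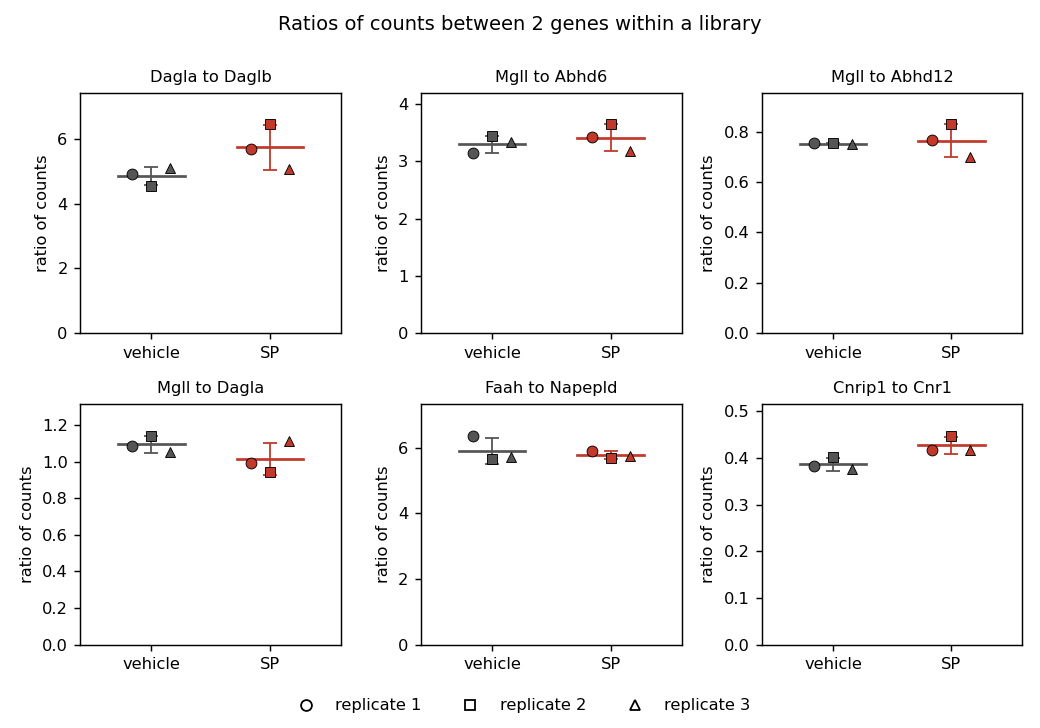
Ratios of the counts of 2 genes within each library, which do not depend on library scaling, with vehicle in grey, SP in red, means as lines and the SD over 3 mice as error bars. Only *Cnrip1* to *Cnr1* separates the groups, with 0.376 to 0.402 in the vehicle and 0.416 to 0.448 in the SP libraries.

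**Figure D3:**
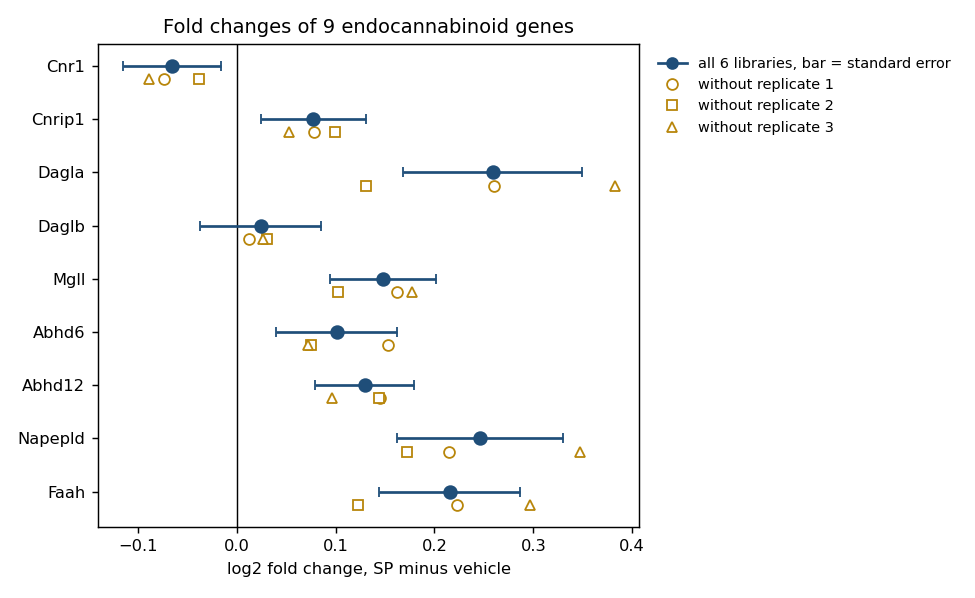
Log2 fold changes, SP over vehicle, are in blue with the standard error derived from edgeR's test. Open symbols are the values without both mice of replicate 1, 2 or 3. *Dagla*, *Faah* and *Napepld* move most between these subsets, with *Dagla* at 0.13 without replicate 2 and 0.38 without replicate 3, and *Daglb* stays near 0.

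The upstream sequences of 3 enzyme genes with p under 0.05 are shown with that of *Cnr1*, which did not share their direction, to let them be compared for promoter motifs. Each run is read 5′ to 3′ on the gene's own strand and ends just before the most upstream start that RefSeq annotates on GRCm38.p6. Capitals mark matches, on either strand, of the E-box CACGTG or the GC box GGGCGG. The last 2 bases before the *Faah* start are left out because GENCODE places them in its first exon. RefSeq windows were at hand for 7 of the 9 genes, not for *Dagla* and *Abhd12*.
Mgll, chr6:88724162-88724411, plus strand: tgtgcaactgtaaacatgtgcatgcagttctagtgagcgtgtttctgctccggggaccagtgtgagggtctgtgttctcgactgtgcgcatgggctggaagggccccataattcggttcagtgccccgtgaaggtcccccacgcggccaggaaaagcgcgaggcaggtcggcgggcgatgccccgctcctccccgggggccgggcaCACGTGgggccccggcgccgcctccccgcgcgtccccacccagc
Napepld, chr5:21701623-21701872, minus strand: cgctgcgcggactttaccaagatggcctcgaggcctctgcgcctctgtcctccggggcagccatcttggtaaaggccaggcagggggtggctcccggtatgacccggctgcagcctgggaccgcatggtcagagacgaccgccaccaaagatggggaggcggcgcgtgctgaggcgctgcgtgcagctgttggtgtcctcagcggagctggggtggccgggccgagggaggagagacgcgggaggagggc
Faah, chr4:116017927-116018174, minus strand: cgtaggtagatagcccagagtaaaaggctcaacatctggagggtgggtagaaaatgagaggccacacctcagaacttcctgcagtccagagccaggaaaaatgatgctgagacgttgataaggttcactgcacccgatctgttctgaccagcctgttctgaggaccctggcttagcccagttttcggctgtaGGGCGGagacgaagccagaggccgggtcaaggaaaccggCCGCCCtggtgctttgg
Cnr1, chr4:33924014-33924263, plus strand: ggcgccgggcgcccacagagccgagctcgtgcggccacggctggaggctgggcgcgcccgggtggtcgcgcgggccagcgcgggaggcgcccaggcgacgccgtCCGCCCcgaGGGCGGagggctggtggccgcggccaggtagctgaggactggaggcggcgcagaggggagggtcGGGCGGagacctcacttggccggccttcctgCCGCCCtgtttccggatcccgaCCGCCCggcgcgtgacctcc

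*Mgll* had 1 E-box, a motif found in 6.04% of the 27025 gene windows searched, and its window lies within an exon of the opposite-strand noncoding gene *Gm26588*. *Faah* had 2 GC boxes and *Cnr1* had 5, a motif found in 33.0% of windows, and *Napepld* had no match of either. The cAMP response element TGACGTCA, the TATA box TATAAA and the CCAAT box CCAAT were found in 1.6%, 13.0% and 34.5% of windows and in 0 of these 4. No motif searched was thus common to the 3 enzyme genes. GC content was 68.0%, 69.6%, 55.6% and 79.2% in the windows of *Mgll*, *Napepld*, *Faah* and *Cnr1*, beside a median of 52.0% over all windows.

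To compare levels between genes, TPM were computed with the length of the longest GENCODE transcript. *Abhd12* had the highest level, at 296 ± 6.88 TPM in the vehicle and 319.7 ± 13.7 TPM in the SP group (SD, n = 3 mice each). *Mgll* followed with 112 ± 2.84 and 122 ± 13.9 TPM, and *Cnrip1* with 90.95 ± 0.935 and 94.6 ± 1.82 TPM. *Cnr1*, *Faah* and *Dagla* could not be separated from their neighbours in this order, ranging over the 6 libraries from 79.7 to 88.8, from 75.2 to 102 and from 70.9 to 104 TPM. In SP 2, *Faah* and *Dagla* also exceeded *Cnrip1*, which ranged from 89.99 to 96.2 TPM. *Abhd6* lay lower, between 58.6 and 67.9 TPM. *Napepld* and *Daglb* were the least expressed, at 16.8 to 25.2 and 16.2 to 18.6 TPM, and these overlapped each other. The 2-AG synthases thus differed widely in level, and the 2-AG hydrolases did so too. The order from the third to the seventh place depends on the length used. With the length of all annotated exons *Cnrip1* moved from the third to the seventh place, and with the median protein-coding transcript *Faah* moved above *Cnr1*.

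Library SP 2 had the highest level of all 6 libraries for 6 of the 9 genes, which 24.4% of tested genes did, and the lowest for *Cnr1*. Relative to the vehicle mean, the log2 level of *Dagla* was higher by 0.26, 0.49 and 0.031 in SP 1, 2 and 3, that of *Faah* by 0.20, 0.40 and 0.045, that of *Napepld* by 0.20, 0.45 and 0.083, and that of *Mgll* by 0.11, 0.28 and 0.055. The same order of libraries, SP 2 above SP 1 above SP 3, was seen in the median of 8 oligodendrocyte genes, at 0.64, 0.27 and 0.14. It was also seen in the median of 10 genes of hippocampal fields, at 0.33, 0.29 and 0.11. Genes of neocortex and subiculum had medians of -0.54, -0.15 and -0.12 in SP 2, 1 and 3, and striatal genes -0.44, -0.093 and 0.0032.

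In the libraries labelled SP, 4.48% of all tested genes were higher with an unadjusted p under 0.05, and 5.59% were lower with one. Of the 8 oligodendrocyte genes, 6 were higher by this measure, among them *Mobp*, *Cnp*, *Cldn11*, *Mbp* and *Mag*. Summed over the 8 genes, levels were 4149 to 4657 CPM in the vehicle and 4765 to 6823 CPM in the SP group. Of the 10 genes of hippocampal fields, 6 were higher by the same measure, among them *Spink8*, *Fibcd1*, *Rgs14* and *C1ql2*. Their log2 fold changes ran from 0.22 for *Grik4* to 0.88 for *Iyd*. In all, 9 of the 10 genes were above 0, *Zbtb20* by only 0.0071, while *Wfs1* was at -0.16. The summed levels of the 10 genes were 1044 to 1092 CPM in the vehicle and 1060 to 1279 CPM in the SP group. Of 8 neocortical and subicular genes, *Rorb*, *Nr4a2*, *Ccn2* and *Tshz2* were lower with p under 0.05, and the sums were 269.5 to 285 and 177 to 253 CPM. Of 6 striatal genes, *Drd1* and *Gpr6* were lower with p under 0.05, at -0.92 and -0.72, while 3 of the 6 were above 0, *Adora2a* highest at 0.26, and the median was -0.044. The median over 6 choroid plexus genes was -1.41, with *Kl*, *Kcnj13* and *Prlr* at p under 0.05 (-0.99, -1.45 and -1.46) and *Ttr* at -1.58. Among 6 genes of the leptomeninges *Igf2* had p under 0.05, at -0.70, and *Dcn* was at -0.58. All of these marker genes had an FDR above 0.1. The part of these markers in the levels of *Dagla*, *Mgll*, *Napepld* and *Faah* was not tested.

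**Figure D4:**
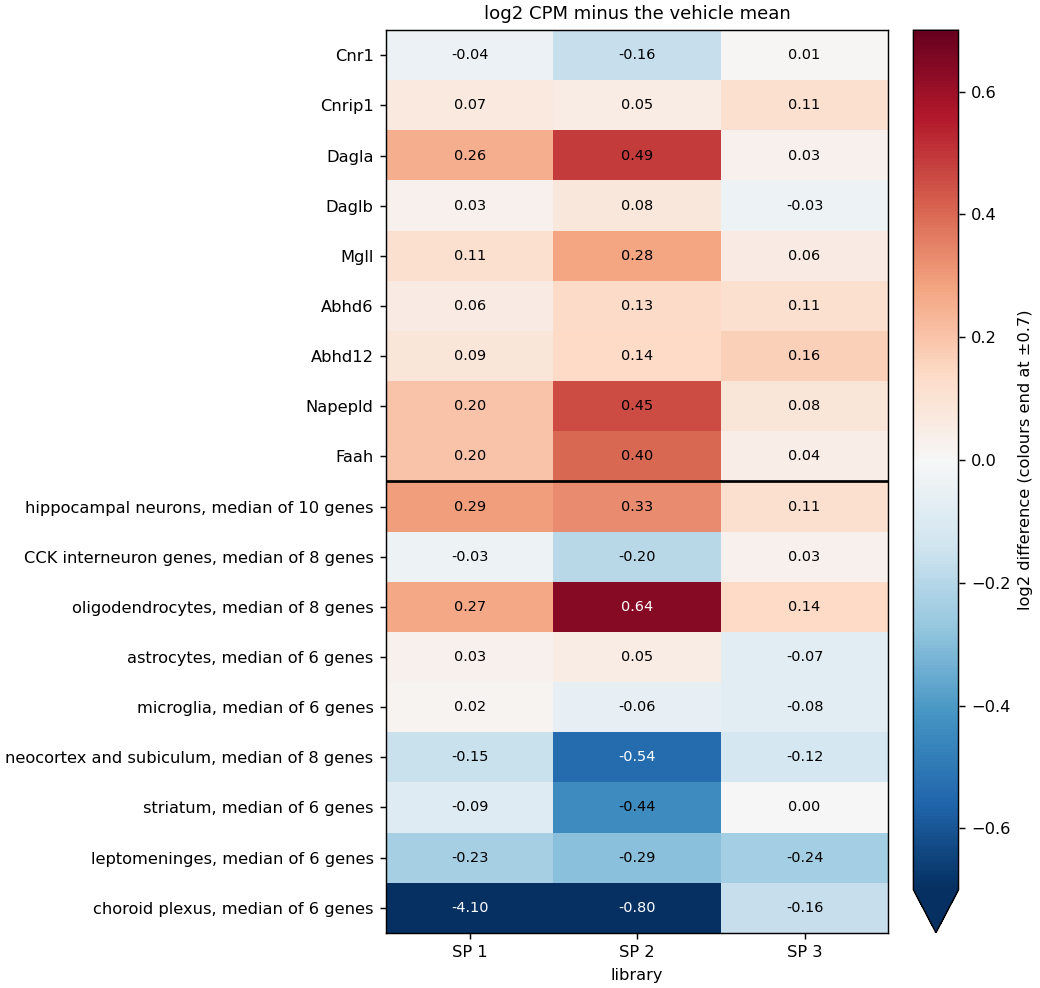
Log2 CPM in the libraries labelled SP minus the vehicle mean, for the 9 genes above the line and as medians of marker lists under it. Red is higher and blue lower than vehicle, and choroid plexus values lie beyond the colour range in SP 1 and SP 2. *Dagla*, *Napepld* and *Faah* are highest in SP 2, with 0.49, 0.45 and 0.40, as are the oligodendrocyte genes with 0.64.

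Markers of astrocytes and microglia, which also hold *Mgll*, *Daglb* and *Abhd12*, differed less. The 6 astrocyte genes had log2 fold changes from -0.049 for *Slc1a3* to 0.099 for *Gfap* and the 6 microglial genes from -0.072 for *Tmem119* to 0.019, and 0 of these 12 had an unadjusted p under 0.05. Among genes of the interneurons that carry most CB1, *Cck*, the neuropeptide that names them, had 178, 175 and 169 CPM against 189, 196 and 189 CPM, which edgeR put at 0.13 on the log2 scale (standard error 0.0497, FDR 0.441). *Cck* is also expressed by pyramidal cells. *Vip* had a log2 fold change of -0.34 (FDR 0.404), and *Gad2*, a GABA synthase gene, was at -0.21 (FDR 0.575). The median of these 8 genes was -0.074, and their sums overlapped, at 728 to 814 CPM in the vehicle and 676 to 792 CPM in the SP group. In SP 2, where *Cnr1* was lowest, this sum was lowest as well. *Gad1* (243 CPM), *Gad2* (105 CPM), *Slc32a1* (48.3 CPM) and *Vip* (9.09 CPM) were each lowest there, whereas *Cck* was highest there. *Htr3a*, *Slc17a8* and *Cxcl14* had their lowest level in another library. The part of the interneuron genes in the level of *Cnr1* was not tested.

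The receptors and G proteins that drive 2-AG synthesis were close to even. Of 9 such genes, 0 had an unadjusted p under 0.05, and the log2 fold changes ran from -0.056 to 0.14, the highest for *Chrm1* (standard error 0.0705, FDR 0.551). *Chrm3* was at 0.12. Of 11 partners of CB1 signaling, 0 reached that p. The arrestin gene *Arrb2*, which encodes an adaptor that desensitizes G protein-coupled receptors, had 48.5, 47.9 and 49.5 CPM against 58.04, 52.6 and 50.1 CPM. These groups did not overlap and differed by 0.14 on the log2 scale (standard error 0.0664, FDR 0.539). Of the 11 partners, 1 separated upward, *Arrb2*, and 0 downward, beside 9.19% and 9.03% of all tested genes. *Gprasp1*, which encodes a protein that sorts internalized receptors, was at -0.099.

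Other enzymes of related lipids showed no joint direction. Of 14 other lipid enzymes listed, 12 symbols were in the table and all 12 were tested, with a median log2 fold change of -0.0010. Of these, 2 had an unadjusted p under 0.05, both lower, beside 5.59% of all tested genes. *Cyp2j6*, a cytochrome P450 gene, had 18.8, 19.03 and 19.96 CPM against 17.5, 16.5 and 16.7 CPM, with -0.19 on the log2 scale (standard error 0.0770, FDR 0.480). *Alox12*, a lipoxygenase gene, was near the limit of detection at 0.817, 1.13 and 0.98 CPM against 0.426, 0.747 and 0.404 CPM (-0.90 on the log2 scale, standard error 0.307, FDR 0.424). *Pla2g4e*, which encodes a maker of the precursors that NAPE-PLD cleaves, was at -0.26 (FDR 0.541). The 5 lipid carriers lay between 0.023 and 0.073, with *Fabp7* and *Fabp5* highest at 0.073 and 0.059.

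The other receptors of these lipids were hardly expressed. *Cnr2*, the CB2 receptor gene, had at most 10 counts in a library, *Trpv1* at most 9, *Gpr55* at most 7 and *Gpr18* at most 2, while *Gpr119* had 0 in every library, which allows up to 0.109 to 0.135 CPM for counting error alone. These 5 genes did not pass the filter and were not tested. The nuclear receptor genes *Ppara* and *Pparg* overlapped between the groups, *Ppara* at -0.34 on the log2 scale with an FDR of 0.652 and *Pparg* at -0.28 with one of 0.736.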

How the data were processed

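Total RNA from 6 hippocampi was made into stranded mRNA libraries. The values deposited by the authors are estimated counts (expected counts) per gene from Salmon, after trimming by TrimGalore and alignment by STAR on GRCm38, and are scaled neither for depth nor for length. Tool versions and the annotation release are not given in the sources used here. Of these values 9.77% were not whole, and all were rounded. Columns were matched to mice by the labels.

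Genes were filtered with filterByExpr of edgeR 4.0.16 in R 4.3.3 (minimum count 10, minimum total 15), leaving 17069, normalized by TMM and tested with glmQLFit and glmQLFTest, with the replicate number, which the labels call a batch, as a block, as the methods of the paper adjust for replicates. Across genes, the deviations of same-numbered mice from their group means correlated with r of 0.0118, -0.0798 and 0.0385. FDR is the Benjamini-Hochberg value over all tested genes. Nothing says how the mice of a number relate beyond the batch. Standard errors were derived from edgeR's test, as the absolute log2 fold change divided by the square root of the F statistic. Their median over all tested genes was 0.0906. Fold changes are the libraries labelled SP over those labelled vehicle.

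TPM used GENCODE M21 lengths, and promoters came from RefSeq on GRCm38.p6. Alternatives were no block, RLE or upper quartile normalization, no filter, DESeq2 1.42.0, limma-voom (limma 3.58.1), each replicate left out and other transcript lengths. Fits without SP 1 or SP 2 and without the block, the motifs and the comparison of scalings were chosen after seeing the data. The fits were tested on simulated data. The 9 genes and the lists were chosen with earlier results of these data known. Named from each list were genes called, genes with an unadjusted p under 0.05, the 2 with the largest fold change and, for *Cnr1*, the 3 most similar genes. Some marker genes that this rule would name are not reported here.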

Additional observations from a re-analysis of the deposited data

How the results depend on the processing

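None of the 9 genes passed FDR < 0.1 and |log2FC| > 0.3 in edgeR or under any of the 12 alternatives, and 107 of 108 fold changes kept their direction. The exception was *Daglb*, at -0.0037 without SP 2 and without the block. The number of the 9 genes that were higher with an unadjusted p under 0.05, 5 in the blocked edgeR fit, was 2 with DESeq2 and the block, 3 without SP 2 and without the block, and 0 to 4 when the mice of replicate 1, 2 or 3 were left out, 0 being without replicate 1 and 2 without replicate 2. The log2 fold change of *Dagla* ran from 0.13 to 0.38 and its FDR from 0.120, with no filter, to 0.856. Over all genes, 5 were called with the replicate block and 2 with no replicate block. The count was 2 with limma-voom, 36 with DESeq2 and the block, 133 with DESeq2 and no block, 384 with no filter, and 9 to 36 when a replicate was left out. The cause was not tested. The block changed no call among the 9 genes. Of the 6 ratios, *Mgll* to *Abhd12* reversed to a log2 difference of -0.041 without replicate 2, with -0.041 to 0.080 over the 3 subsets, and *Faah* to *Napepld* to 0.0096 without replicate 1, with -0.051 to 0.0096 over the subsets. Pairing the ratios by replicate block gave sign-flip p of 0.25 to 1, where 3 pairs cannot go below 0.25. Length-scaled levels of 8 of the 9 genes, all but *Mgll*, moved by more than 1 SD with another length, for example 92.8 TPM for *Cnrip1* with the longest transcript and 61.03 TPM with all exons.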
